A study of Homo sapiens with 24 samples.

Results

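KIAA0040, INPP1, PHLDA1 and TNS4 are 4 transcripts whose level in AsPC-1 tumors was far below vehicle 4 to 8 h after the MEK-RAF glue IK-595 and was higher again by 48 h. They were chosen by their measured levels at 4, 8 and 48 h against vehicle, so those values are a description and carry no test. They are 4 of 60230 genes in the table and of 18242 genes tested, and all 4 passed the filter on low counts. AsPC-1 is a human pancreatic ductal adenocarcinoma line, here grown as xenograft tumors in mice. Mice were dosed by mouth every other day, 3 times in all, with IK-595 (6 mg/kg) or with its vehicle, a mix of 5% DMSO and 95% PEG400, and 4 animals gave 1 tumor each in every group. Vehicle tumors were taken 2 h after the last dose and IK-595 tumors at 2, 4, 8, 24 or 48 h, which makes 6 groups and 24 tumors. PolyA RNA was sequenced to 10.52 to 20.64 M estimated counts per tumor. Vehicle tumors exist at 2 h alone, so in every later comparison with vehicle the treatment and the time after dosing cannot be told apart. No group was taken just before the last dose, so at 2 h its effect and that of earlier doses cannot be told apart.

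The RAS-RAF-MEK-ERK cascade drives a set of short-lived transcripts through factors such as ETS and AP-1 proteins, and many of their products feed back on the cascade. IK-595, per the labels, is a molecular glue that holds MEK and RAF together. PHLDA1 encodes a protein with a pleckstrin homology-like domain and is a standard readout of ERK output. TNS4 encodes a short tensin that lacks the actin-binding part of its relatives, binds the tail of integrin beta-1 and has been linked to the stability of EGFR and MET. INPP1 encodes an inositol polyphosphate phosphatase that is inhibited by lithium and feeds the recycling of inositol. KIAA0040 encodes a small protein of little known function.

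The 4 genes lie on different chromosomes. Coordinates are from GENCODE 29 on GRCh38. KIAA0040 (ENSG00000235750.10) is at chr1:175156987-175192999 on the minus strand, INPP1 (ENSG00000151689.13) at chr2:190343470-190371665 on the plus strand, PHLDA1 (ENSG00000139289.14) at chr12:76025447-76033932 on the minus strand and TNS4 (ENSG00000131746.13) at chr17:40475828-40501597 on the minus strand. The coding transcripts used here have 2, 7, 2 and 13 exons in that order. The 250 bases before the gene start that RefSeq gives were read from RefSeq promoters on GRCh38.p14 for the 3 genes that the table holds, KIAA0040, INPP1 and PHLDA1. They were searched on both strands for TGANTCA (the AP-1 site with any base at its centre), TGACGTCA (CRE), CCGGAAGT (ETS), GGAATG (TEAD), GGGCGG (GC box) and CACGTG (E-box). TGACGTCA, CCGGAAGT, GGAATG and CACGTG were in none of these 3 windows, and GGGCGG was in each, that of INPP1 included. Apart from the open centre of TGANTCA, only these exact letters were sought. Shorter or looser forms of a site, such as those of ETS factors, were not counted and may be present. The KIAA0040 window is shown whole, since this gene had the deepest fall of the 4. It is chr1:175192988-175193237 on the minus strand, and capitals mark GGGCGG.
KIAA0040: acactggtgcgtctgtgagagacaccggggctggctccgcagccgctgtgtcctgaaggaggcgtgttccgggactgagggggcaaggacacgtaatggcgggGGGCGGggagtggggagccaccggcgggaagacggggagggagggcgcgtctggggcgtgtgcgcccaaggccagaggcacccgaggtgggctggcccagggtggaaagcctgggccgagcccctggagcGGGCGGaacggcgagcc

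The INPP1 window was the one that matched TGANTCA, and 119 of its 250 bases lie in annotated exons. The match reads TGAATCA, which is not the AP-1 consensus TGA(C/G)TCA. The PHLDA1 window lies wholly in the first exon of a longer transcript. For both only the 30 bases around a match are shown, with the match in capitals, to let the 2 kinds of match be compared. They are chr2:190343559-190343588 on the plus strand for the TGAATCA of INPP1, which starts 16 bases before the RefSeq start and inside the GENCODE gene, and chr12:76031795-76031824 on the minus strand for the GC box of PHLDA1.
INPP1: cctggccctccctcTGAATCAtcgcgctcc
PHLDA1: gcggaagcaagtGGGCGGcgagaggcggag

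Over 35116 promoters of the same length 6.57% held TGANTCA and 42.6% held GGGCGG, and over the 11523 of tested genes 4.28% and 64.5%. GC content was 72.8% for KIAA0040, 54.4% for INPP1 and 70.4% for PHLDA1, beside a median of 64.4% over tested genes. A match is a description of the letters and does not show that a factor binds there.

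The letters ATTTA, the core of AU-rich elements that are known to mark short-lived transcripts, were also counted in the 3′ UTR. PHLDA1 had 14 copies in 4672 bases and KIAA0040 had 10 in 3182 bases, while TNS4 had 1 in 1760 bases and INPP1 had 0 in 262 bases. The median over 12942 tested genes was 2 copies and 1.60 per kilobase. PHLDA1 at 2.997 and KIAA0040 at 3.14 per kilobase were above that median, and TNS4 at 0.568 per kilobase was below it. By density PHLDA1 and KIAA0040 exceeded 72.4% and 74.7% of these genes, so many genes are denser. Their 3′ UTRs were longer than those of 92.8% and 84.3%. The 30 bases that hold the densest ATTTA letters of each long 3′ UTR are shown with those letters in capitals, in the transcript's sense. They are bases 635 to 664 of the KIAA0040 3′ UTR and 298 to 327 of the PHLDA1 3′ UTR, from the GENCODE 29 transcripts.
KIAA0040: aaagaggtttATTTAtATTTAtattgaagc
PHLDA1: gtattttgATTTAtgattATTTAttagttt

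Levels below are in CPM, a gene's estimated count per M counts of the TMM-scaled library, as mean ± SD with n = 4 tumors, and values in a row are those of tumors 1 to 4. Between genes only TPM, which is also scaled by transcript length, was compared. In vehicle tumors INPP1 stood highest at 105 ± 3.77 TPM (SD, n = 4). KIAA0040 at 63.5 ± 9.74 TPM and PHLDA1 at 62.8 ± 3.83 TPM differed by less than the spread, and TNS4 was lowest at 27.3 ± 16.2 TPM. At 4 h the order by TPM was INPP1 at 38.8 ± 3.28, PHLDA1 at 6.45 ± 1.32, TNS4 at 3.15 ± 1.40 and KIAA0040 at 1.84 ± 0.299. KIAA0040 thus went from the level of PHLDA1 to the lowest of the 4. In tumor tissue, fewer cells that make a transcript and less of it per cell cannot be told apart.

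KIAA0040 had the deepest fall. Vehicle tumors held 194, 173, 232 and 188 CPM. At 2 h the values were 37.9, 27.1, 31.3 and 26.0 CPM, and at 4 h 4.78, 6.99, 6.02 and 4.45 CPM. Every 2 h tumor lay far below every vehicle tumor, and every 4 h tumor far below every 2 h tumor. At 8 h the 4 tumors held 11.95, 5.88, 11.1 and 3.71 CPM, a range that takes in the 4 h values. At 24 h they held 33.8, 33.7, 56.7 and 37.5 CPM, overlapping the 2 h tumors. At 48 h the values were 141, 81.6, 180.4 and 92.0 CPM, so that 1 tumor reached the vehicle range and 3 stayed below it. As a share of the vehicle mean the level was 15.5%, 2.83%, 4.16%, 20.6% and 63.0% from 2 to 48 h. At 4, 8 and 48 h its log2 fold change from vehicle was -5.15 ± 0.33 (SE), -4.58 ± 0.32 and -0.67 ± 0.28. By size of fall KIAA0040 ranked 14 of the 18242 genes at 4 h and 30 at 8 h. The lowest of its 24 values rests on 43.0 estimated counts, so counting error is a larger part of the spread there than elsewhere.

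PHLDA1 had the flattest course from 2 to 8 h and, at 2 h, the largest share of its full fall from vehicle. Vehicle tumors held 294, 300.4, 256 and 273 CPM. The 2 h tumors held 25.7, 37.2, 24.3 and 37.0 CPM, the 4 h tumors 24.1, 37.0, 24.9 and 28.4 CPM and the 8 h tumors 36.9, 22.8, 25.6 and 28.2 CPM. These 3 groups overlapped throughout and lay far below vehicle, with 98.9% of the full fall from vehicle reached by 2 h. At 24 h the tumors held 61.0, 65.0, 98.4 and 56.8 CPM, all above every earlier IK-595 tumor. At 48 h they held 134, 107, 214 and 119.7 CPM, all above the 24 h tumors and all below the vehicle tumors. The group means were 11.1%, 10.2%, 10.1%, 25.0% and 51.1% of vehicle from 2 to 48 h. The return by 48 h for which it was chosen was thus only partial. At 4, 8 and 48 h the log2 fold change of PHLDA1 from vehicle was -3.30 ± 0.23, -3.31 ± 0.23 and -0.97 ± 0.21.

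TNS4 had the widest spread of the 4 genes in vehicle tumors. Vehicle tumors held 48.3, 51.1, 37.8 and 116 CPM, with a mean of 63.4 and an SD of 35.8, and tumor 4 stood well above the other three. The 2 h tumors held 26.9, 36.6, 37.9 and 18.5 CPM, the highest of which reached the lowest vehicle tumor. At 4 h the tumors held 8.74, 7.37, 10.05 and 4.51 CPM and at 8 h 14.3, 10.5, 9.33 and 11.9 CPM. Both groups lay below all vehicle and all 2 h tumors. At 24 h the values were 62.1, 22.7, 28.0 and 28.1 CPM, and at 48 h 119, 60.2, 137 and 62.8 CPM. The 48 h tumors lay above 3 of the 4 vehicle tumors, and their mean was 149.5% of vehicle. Without vehicle tumor 4 that share was 207%, and the 2 h share was 65.5% in place of 47.3%. At 4, 8 and 48 h the log2 fold change of TNS4 from vehicle was -3.04 ± 0.41, -2.46 ± 0.40 and 0.58 ± 0.37. Without vehicle tumor 4 these values were -2.55, -1.98 and 1.06.

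INPP1 had the shallowest fall and the tightest replicates. Vehicle tumors held 114, 109, 109 and 109.9 CPM, an SD of 2.44. The 2 h tumors held 58.1, 67.1, 69.7 and 61.4 CPM, the 4 h tumors 37.6, 40.0, 36.0 and 40.1 CPM and the 8 h tumors 51.5, 47.1, 48.4 and 39.1 CPM. The 4 h and 8 h tumors overlapped, and both groups lay below all 2 h tumors. At 24 h the values were 93.7, 81.6, 104 and 94.7 CPM and at 48 h 121, 111, 125 and 126 CPM. All 24 h tumors were still below every vehicle tumor, and the 48 h tumors reached or passed them. The mean at 4 h was 34.9% of vehicle, a 2.87-fold difference, against 35.4-fold for KIAA0040, 9.90-fold for PHLDA1 at 8 h and 8.27-fold for TNS4. At a log2 fold change of -1.52 ± 0.10 at 4 h and -1.24 ± 0.10 at 8 h, INPP1 ranked 359 and 1090 by size of fall, so "deep" describes it less well than the others. At 48 h its log2 fold change was 0.13 ± 0.10.

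**Figure D1:**
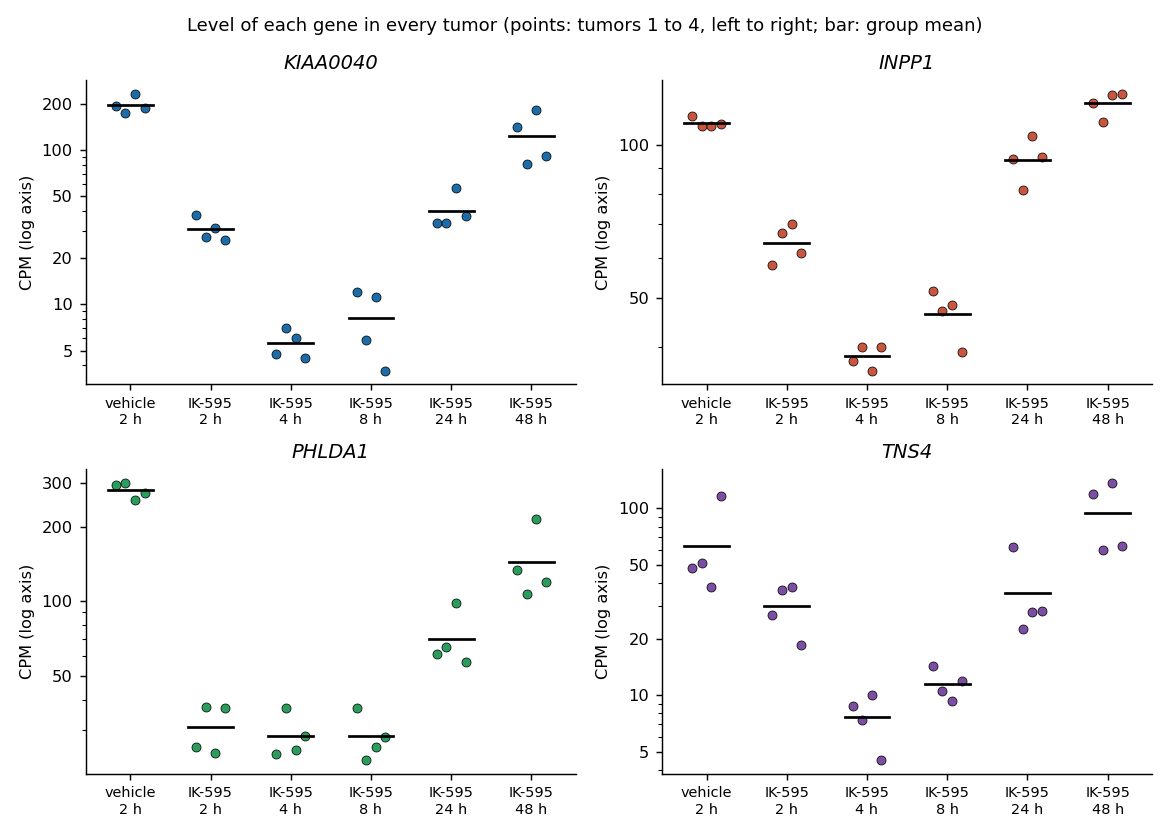
Level of KIAA0040, INPP1, PHLDA1 and TNS4 in CPM (log axis, a separate scale per gene) in each of the 24 tumors. Points are tumors 1 to 4 of a group from left to right and bars are group means. PHLDA1 overlaps between 2, 4 and 8 h, KIAA0040 and TNS4 drop further from 2 to 4 h, and vehicle tumor 4 stands high for TNS4.

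In the contrasts that chose them, all 4 genes had every treated tumor below every vehicle tumor at 4 h and at 8 h. Over all genes tested 11.5% did so at 4 h and 23.8% at 8 h. At 48 h PHLDA1 alone did so, beside 9.26% of all genes. A fall at least as deep as that of KIAA0040 at both 4 and 8 h was shown by 6 genes, KIAA0040 itself among them. For INPP1 the count was 249, again with the gene itself. It was 19 for PHLDA1 and 32 for TNS4, counted the same way. Of the 32 genes as low as TNS4 at both times, TNS4 alone was as high at 48 h, where its value of 0.58 ± 0.37 was uncertain. Of the 19 for PHLDA1, 15 were as high as PHLDA1 at 48 h, PHLDA1 itself counted. For KIAA0040 it was 5 of the 6 and for INPP1 40 of the 249. These counts rest on the values that chose the genes and are no evidence of a particular course.

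Steps between neighbouring times are given for each gene as a description. From 2 to 4 h the log2 change was -2.47 ± 0.30 for KIAA0040, -1.96 ± 0.39 for TNS4 and -0.74 ± 0.10 for INPP1, while for PHLDA1 it was -0.12 ± 0.22. From 8 to 24 h the levels of all 4 were higher, by 2.29 ± 0.30 for KIAA0040, 1.61 ± 0.39 for TNS4, 1.31 ± 0.22 for PHLDA1 and 1.01 ± 0.10 for INPP1. From 24 to 48 h the differences were 1.62 ± 0.28, 1.43 ± 0.38, 1.03 ± 0.22 and 0.37 ± 0.10 in the same order. On the linear scale, INPP1 had regained 76.8% of its fall by 24 h, TNS4 49.4%, KIAA0040 18.2% and PHLDA1 16.6%. At 48 h the shares regained were 115% for INPP1, 156% for TNS4, 61.9% for KIAA0040 and 45.6% for PHLDA1. Dosing was every other day, so the 48 h tumors stand at the end of a dosing interval. Against them the 2 h tumors were at a log2 change of -2.21 ± 0.22 for PHLDA1 and -2.02 ± 0.29 for KIAA0040. The values were -1.66 ± 0.38 for TNS4 and -0.92 ± 0.10 for INPP1. These steps and differences share groups with the choice of the genes and were not tested.

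**Figure D2:**
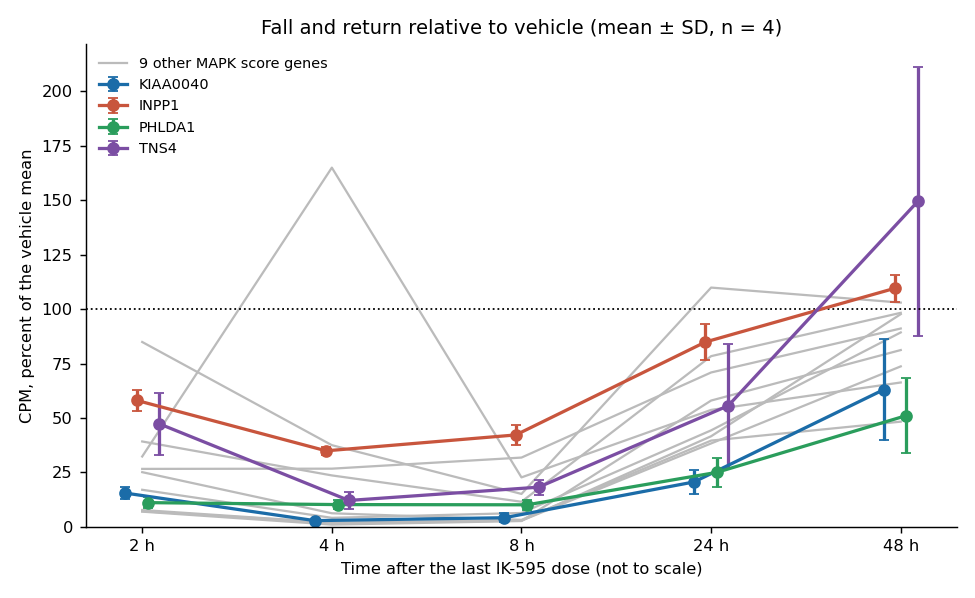
Mean CPM as percent of the vehicle mean at each time after the last IK-595 dose (axis not to scale), with SD over 4 tumors, for the 4 genes. Grey lines are the 9 other genes of a MAPK output score, with EPHA4 at 165% at 4 h. EPHA4 is low and variable, at 2.93 ± 1.87 CPM (SD) in vehicle tumors and 4.83 ± 7.11 CPM at 4 h. KIAA0040 and PHLDA1 are at 20.6% and 25.0% at 24 h, below each of those 9 genes.

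For scale, the 9 other genes of a score of MAPK output (the phosphatases DUSP4 and DUSP6, the ETS factors ETV4 and ETV5, the Sprouty brakes SPRY2 and SPRY4, the ephrin receptors EPHA2 and EPHA4, and cyclin D1, CCND1) were set beside them. PHLDA1 is itself a gene of that score. At 24 h the 9 genes stood between 38.3% of vehicle (DUSP4) and 109.9% (ETV4), and KIAA0040 at 20.6% and PHLDA1 at 25.0% lay under that range. At 4 h KIAA0040 at 2.83% was near DUSP6 (1.89%), DUSP4 (1.90%) and EPHA2 (4.11%). At 48 h PHLDA1 at 51.1% was near ETV5 at 48.3%, while DUSP6 was at 97.7%.

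The 2 h tumors took no part in the choice of the genes, although the vehicle tumors did. By edgeR's quasi-likelihood test with Benjamini-Hochberg adjustment over all genes, all 4 genes fell at 2 h, where 13.6% of all genes fell. PHLDA1 fell by 3.18 ± 0.23 on the log2 scale (adjusted p = 3.10e-08), which placed it 36 among all genes by size of fall. KIAA0040 fell by 2.69 ± 0.29 (adjusted p = 3.45e-06) and INPP1 by 0.78 ± 0.10 (adjusted p = 1.45e-05). For these 3 genes every 2 h tumor lay below every vehicle tumor, as for 16.9% of all genes. TNS4 fell by 1.08 ± 0.38 (adjusted p = 0.0377), with overlap between the groups. Its call was lost without vehicle tumor 4, with a log2 fold change of -0.62 and an adjusted p of 0.199. It was also lost without 2 h tumor 1 (-1.05, adjusted p = 0.0657), tumor 2 (-1.19, adjusted p = 0.0517) or tumor 4 (-0.91, adjusted p = 0.119).

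At 24 h against vehicle 2 of the 4 genes passed the same edgeR test, where 13.8% of all genes fell. KIAA0040 was lower by a log2 fold change of -2.28 ± 0.29 (adjusted p = 1.32e-05) and PHLDA1 by -1.998 ± 0.22 (adjusted p = 3.48e-06). INPP1, at -0.24 ± 0.10, missed the threshold (adjusted p = 0.0731) although all 4 tumors lay below all vehicle tumors, and passed with DESeq2 (-0.25, adjusted p = 0.0242). All 24 h tumors lay below all vehicle tumors for 13.5% of all genes. For TNS4 the value was -0.85 ± 0.37 (adjusted p = 0.0947), and without 24 h tumor 1 it was -1.28 (adjusted p = 0.0195). Without 24 h tumor 3 the value for INPP1 was -0.30 (adjusted p = 0.0272).

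None of the 8 tumors at 2 h and 24 h after IK-595 entered the choice of the genes. In the test between them, INPP1 and PHLDA1 rose, 2 of 4 genes where 0.965% of all genes rose. INPP1 was higher at 24 h by 0.55 ± 0.10 on the log2 scale (adjusted p = 0.00324, edgeR), which is 1.46-fold. Fitted on the 2 h and 24 h tumors alone, INPP1 kept that size but missed the threshold (0.55, adjusted p = 0.104). PHLDA1 was higher by 1.18 ± 0.22 (adjusted p = 0.00422), which is 2.26-fold. In both genes all 4 tumors at 24 h were above all 4 at 2 h, as for 3.69% of all genes. KIAA0040 at 0.40 ± 0.28 (adjusted p = 0.603) and TNS4 at 0.23 ± 0.37 (adjusted p = 0.889) were not shown to differ between 2 and 24 h. For TNS4 the sign rested on 24 h tumor 1, and without it the value was -0.18 (adjusted p = 0.880).

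Whether the genes differed from each other was tested in pairs, from the log2 ratio of 2 genes within each tumor. Over 12 exact two-sided permutation tests, 6 pairs at 2 h against vehicle and 6 at 24 h against 2 h, 0 passed after Benjamini-Hochberg adjustment, and 5 had an unadjusted p under 0.05. Those 5 are at 0.0286, the smallest p that 70 assignments allow, which gave 0.0686 after adjustment. No pair could have passed by itself at that smallest p, however large its difference. That 0 passed thus does not show that the genes are alike. The largest differences were at 2 h. PHLDA1 had moved from vehicle by 2.41 ± 0.18 more than INPP1 on the log2 scale (exact p = 0.0286, adjusted p = 0.0686, n = 4 per group), and by 2.21 ± 0.49 more than TNS4 (the same p values). KIAA0040 had moved by 1.90 ± 0.18 more than INPP1 and 1.70 ± 0.47 more than TNS4, again with the smallest exact p. In these 4 pairs the ratios of the 2 groups did not overlap. Between KIAA0040 and PHLDA1 the difference at 2 h was 0.51 ± 0.31 (exact p = 0.171, adjusted p = 0.257). From 2 to 24 h the log2 change of KIAA0040 was 0.79 ± 0.28 below that of PHLDA1 (exact p = 0.0286, adjusted p = 0.0686), with no overlap of the ratios. This does not measure return alone, since from 2 to 4 h KIAA0040 fell further (-2.47 ± 0.30) and PHLDA1 hardly did (-0.12 ± 0.22). From 8 to 24 h the log2 rise was larger for KIAA0040 (2.29 ± 0.30) than for PHLDA1 (1.31 ± 0.22), which was not tested.

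Spread between tumors of a group also differed by gene. INPP1 had a coefficient of variation of 2.22% in vehicle tumors and 11.3% at 8 h, its widest. The same measure reached 49.1% for KIAA0040 at 8 h, 33.5% for PHLDA1 at 48 h and 56.5% for TNS4 in vehicle tumors. At 48 h tumors 1 and 3 were above tumors 2 and 4 for KIAA0040, PHLDA1 and TNS4, with the highest tumor 2.21-fold, 2.00-fold and 2.28-fold above the lowest. INPP1 at 48 h spanned 1.13-fold, with tumor 4 highest. At 24 h tumor 3 was highest for KIAA0040, INPP1 and PHLDA1, while tumor 1 was highest for TNS4. By Dixon's test on CPM, 1 tumor stood above its group in 3 of the 24 sets of 4 tumors: vehicle tumor 4 and 24 h tumor 1 for TNS4, and 24 h tumor 3 for KIAA0040. On log2 CPM 0 of the 24 sets passed that limit.

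Members of the PHLDA and tensin families differed in direction. PHLDA2, a smaller relative of PHLDA1, fell at 2 h by 1.09 ± 0.24 (adjusted p = 0.00269, edgeR) and was at -2.07 ± 0.25 at 8 h and 0.32 ± 0.24 at 48 h. PHLDA3, known as a p53 target that restrains AKT, rose at 2 h by 0.59 ± 0.22 (adjusted p = 0.0466) and at 8 h by 0.68 ± 0.22 (adjusted p = 0.0145). Among the tensins, which tie integrins to actin, TNS2 rose at 2 h by 0.60 ± 0.13 (adjusted p = 0.00249) and at 8 h by 0.74 ± 0.13 (adjusted p = 1.27e-04). TNS3 fell at 2 h by 0.40 ± 0.14 (adjusted p = 0.0375) and rose at 4 h by 0.56 ± 0.14 (adjusted p = 0.00744), and TNS1 passed at no time, with values between -0.91 and 0.45. At 4 h TNS1 was at 0.45 ± 0.54, TNS2 at -0.04 ± 0.13 and TNS3 at 0.56 ± 0.14, beside -3.04 ± 0.41 for TNS4.

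**Figure D3:**
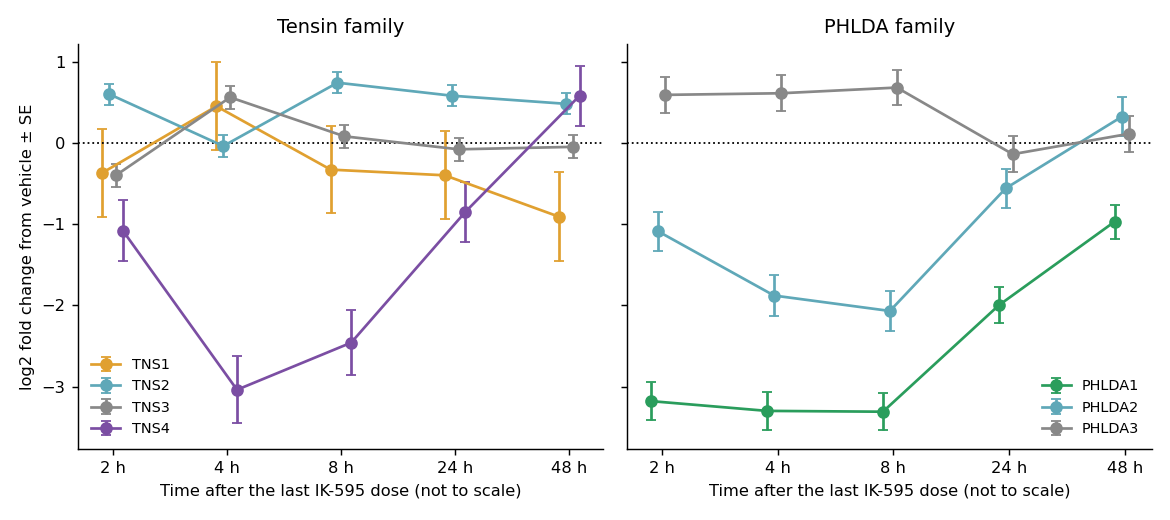
Log2 fold change from vehicle ± SE (edgeR, n = 4 tumors per group) at each time after the last IK-595 dose, axis not to scale, for TNS1 to TNS4 on the left and PHLDA1 to PHLDA3 on the right. TNS4 at -3.04 and PHLDA1 at -3.30 at 4 h lie lowest in their families, and PHLDA2 at 48 h is at 0.32 where PHLDA1 is at -0.97.

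Gene lists around the 4 genes were described by counts, and the median over all genes tested was between -0.01 and 0.07 at every time. Of all genes 13.6% fell and 13.4% rose at 2 h, 23.7% fell and 20.6% rose at 8 h, 13.8% fell and 13.7% rose at 24 h, and from 2 to 24 h 0.965% rose and 1.09% fell. Of the 9 MAPK score genes other than PHLDA1, 7 fell at 2 h with a median log2 change of -1.99, and 6 rose from 2 to 24 h with a median of 1.38. Of 17 tested inhibitors of receptor and MAP kinase signaling, not all of them specific to ERK, 12 fell and 1 rose at 2 h (median -1.17). SPRY4, a Sprouty brake on the RAS pathway, fell by 3.84 ± 0.33 (adjusted p = 2.43e-07, edgeR). At 24 h 8 of the 17 were lower than vehicle and 3 higher, among them DUSP8 at 1.69 ± 0.23 (adjusted p = 2.01e-05). From 2 to 24 h 5 of the 17 rose, with SPRY1 at 2.23 ± 0.17 (adjusted p = 8.85e-08).

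Of 19 genes for other tensins and focal adhesions, TNS4 not counted, 9 fell and 1 rose at 2 h (median -0.40), and 11 fell and 1 rose at 8 h (median -0.51). ITGB1, the integrin beta-1 that TNS4 binds, fell by 1.26 ± 0.22 at 2 h (adjusted p = 3.62e-04) and 1.70 ± 0.22 at 8 h (adjusted p = 3.55e-06), and was at -1.39 ± 0.22 at 24 h (adjusted p = 1.05e-04). ITGB4, the partner of integrin alpha-6 in hemidesmosomes, was at -1.03 ± 0.16 at 24 h (adjusted p = 1.03e-04). Of 10 genes of the EGFR and MET axis 5 fell and 2 rose at 2 h (median -0.47), and 7 fell and 2 rose at 8 h (median -1.11). MET, the HGF receptor, fell by 1.20 ± 0.23 at 2 h (adjusted p = 7.50e-04) and 2.39 ± 0.24 at 8 h (adjusted p = 1.03e-07). EGFR was at -0.52 ± 0.21 at 2 h (adjusted p = 0.0658) and fell by 1.41 ± 0.21 at 8 h (adjusted p = 1.85e-05). The EGFR ligand EREG fell by 2.63 ± 0.30 at 2 h (adjusted p = 4.29e-06) and rose from 2 to 24 h by 1.81 ± 0.29 (adjusted p = 0.00131).

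The inositol genes around INPP1 went both ways. Of 27 inositol phosphate phosphatases and kinases, INPP1 not counted, 7 rose and 5 fell at 2 h (median -0.02), and 10 rose and 6 fell at 8 h (median 0.04). IMPA1, the monophosphatase that acts downstream of INPP1, was at -0.07 ± 0.17 at 2 h (adjusted p = 0.813) and rose by 0.55 ± 0.18 at 8 h (adjusted p = 0.0133), while its relative IMPA2 passed at no time. IP6K2, an inositol hexakisphosphate kinase, rose by 1.04 ± 0.17 at 2 h (adjusted p = 2.45e-04). INPP5D, a phosphatase of phosphoinositides, was at -0.87 ± 0.11 at 24 h (adjusted p = 8.35e-06). Of 23 genes for inositol supply and phosphoinositide signaling 2 rose and 2 fell at 2 h (median 0.12), with PLCD1, a phospholipase C, at 0.79 ± 0.19 (adjusted p = 0.00447). At 24 h 3 rose and 4 fell, and ITPR3, a calcium channel gated by inositol trisphosphate, was at -0.76 ± 0.11 (adjusted p = 3.20e-05). ITPR3 was the 1 gene of that list to change from 2 to 24 h, where it fell by 0.47 ± 0.11 (adjusted p = 0.0214).

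Among 19 AP-1 and ETS factors 10 fell and 4 rose at 2 h (median -0.62), and 13 fell and 3 rose at 8 h (median -1.17). At 24 h 10 were lower than vehicle and 1 higher, with ETV1 at -1.59 ± 0.26 (adjusted p = 1.36e-04, edgeR). MYC, a growth factor-driven transcription factor, fell by 3.29 ± 0.27 at 2 h (adjusted p = 1.33e-07) and rose from 2 to 24 h by 2.17 ± 0.26 (adjusted p = 5.94e-05).

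To find the genes with the most similar time course, the 6 group means of log2 CPM were centred per gene and compared by root mean square difference over 10438 genes with a mean log2 CPM of at least 3. Nearest to KIAA0040 were EPHA2 (0.38), MYEOV (0.58), HS3ST1 (0.63), SLC7A11 (0.64) and DUSP4 (0.66), in log2 units. For PHLDA1 the genes at ranks 2 to 5 were FOXL1 (0.35), MYC (0.36), HS3ST1 (0.37) and THBD (0.39). TNS4 lay nearest to SPRED2 (0.28), SHH (0.29), SHB (0.33), ERRFI1 (0.36) and DUSP7 (0.40), of which SPRED2, ERRFI1 and DUSP7 encode brakes on RAS, EGFR and ERK. For INPP1 they were GALNT4 (0.07), MAP2K3 (0.10), SMOX (0.11), STK40 (0.12) and TMC7 (0.13). For KIAA0040 the closest of the other three was TNS4, rank 9 at 0.77. PHLDA1 stood at rank 14 for KIAA0040 with 0.86. INPP1 was 0.65 from TNS4, the smallest distance among the 6 pairs of the 4 genes, 0.78 from PHLDA1 and 1.29 from KIAA0040, the largest. Yet among the genes compared with INPP1, TNS4 stood only at rank 5422, PHLDA1 at 8756 and KIAA0040 at 10373. The distance depends on the size of the changes as well as on their timing, so ranks for different genes are not alike. EPHA2 was lower than vehicle by 1.18 ± 0.26 log2 units at 24 h, where KIAA0040 was lower by 2.28 ± 0.29.

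**Figure D4:**
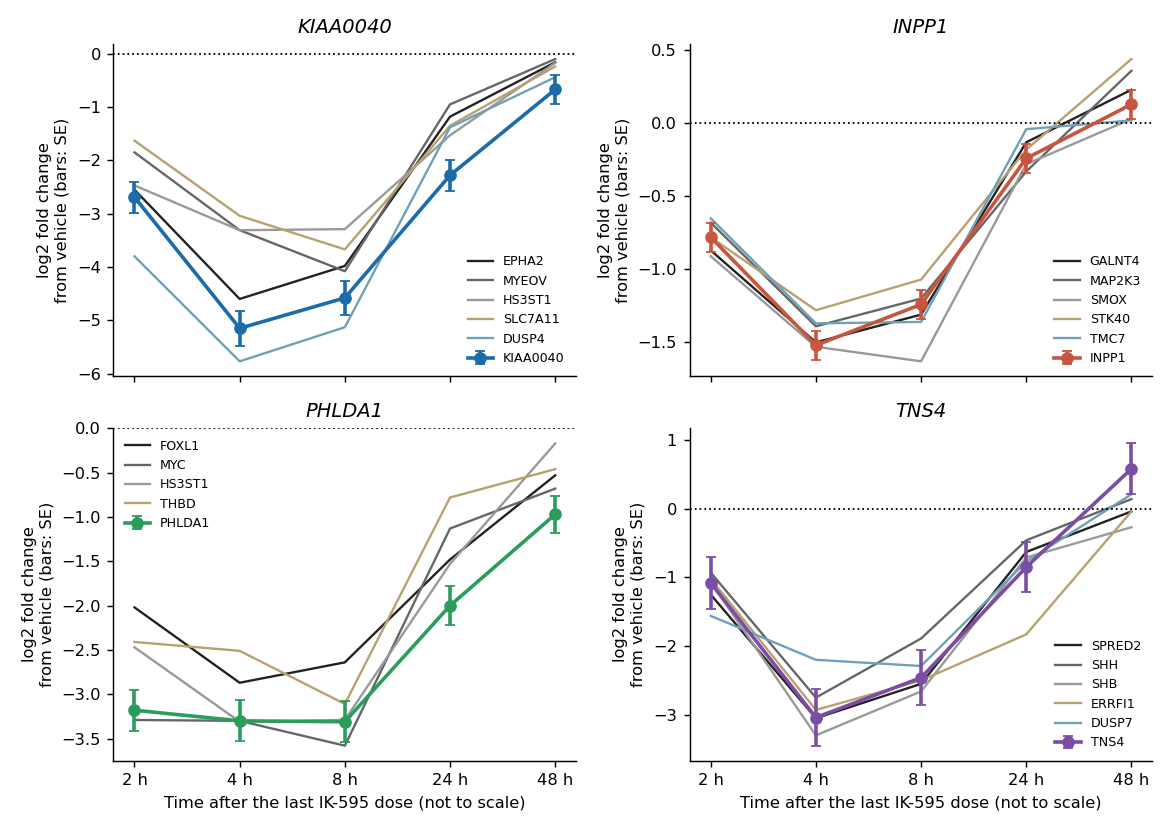
Log2 fold change from vehicle at each time after the last IK-595 dose (axis not to scale; each panel has its own vertical scale) for each of the 4 genes (thick line, bars are SE, n = 4 tumors per group) and the genes of most similar time course (5 for each, 4 for PHLDA1). KIAA0040 at -2.28 and PHLDA1 at -2.00 at 24 h lie below all the nearest genes drawn, while INPP1 and TNS4 lie among theirs.

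Of the 16 nearest tested genes, 2 on each side of the 4 genes, 2 fell and 2 rose at 4 h, where 8.39% of all genes fell and 6.74% rose. At 8 h 7 of the 16 fell (MRPS14, MFSD6, HIBCH, NAP1L1, KRR1, SMARCE1 and AC018629.1) and 1 rose, beside 23.7% and 20.6% of all genes. For KIAA0040 the nearest tested genes were TNN, 8.92 kb away and at 0.146 CPM in vehicle tumors, and MRPS14 on one side, and COP1 and SEC16B on the other. MRPS14, a mitochondrial ribosomal protein, was at -0.03 ± 0.11 at 4 h and COP1, a ubiquitin ligase, at 0.32 ± 0.20, while SEC16B rose by 1.20 ± 0.21 (adjusted p = 3.23e-04, edgeR). TNN, a tenascin of connective tissue, rose by 6.03 ± 1.48 at 4 h (adjusted p = 0.00691) from a level near 0. Among the 4 h tumors is the one of highest fibroblast and pericyte marker sum (tumor 2, 28469 CPM), whose part in the TNN value was not tested. NAP1L1, a histone chaperone 2.65 kb from PHLDA1, held 339 CPM in vehicle tumors and was at -0.08 ± 0.13 at 2 h (adjusted p = 0.688) and -0.29 ± 0.13 at 4 h (adjusted p = 0.133), and fell by 0.48 ± 0.13 at 8 h (adjusted p = 0.00494). On the far side of PHLDA1 KRR1, 514 kb away, fell by 0.56 ± 0.11 at 4 h (adjusted p = 7.99e-04) and GLIPR1 was at 0.27 ± 0.25. Beside INPP1, C2orf88 was at 0.72 ± 0.26 and MFSD6 at -0.29 ± 0.22 at 4 h, and AC093388.1 at -0.05 ± 0.81. Around TNS4, IGFBP4 was at 0.30 ± 0.17, SMARCE1 at 0.20 ± 0.17 and AC073508.2 at 1.83 ± 1.27 at 4 h. The other gene that fell at 4 h was AC018629.1, an unverified transcript on the strand of TNS4 and 0.539 kb beyond its end, which held 1.47 CPM in vehicle tumors and fell by 3.73 ± 0.82 (adjusted p = 0.00222), beside -3.04 ± 0.41 for TNS4.

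HIBCH overlaps the start of INPP1 on the opposite strand, and the sources used here do not say whether counting used strand. It held 34.1 CPM in vehicle tumors and was at -0.42 ± 0.16 at 2 h, -0.20 ± 0.16 at 4 h and -0.68 ± 0.16 at 8 h, so that reads shared with INPP1 cannot be set apart. The antisense genes AC011611.3 and AC011611.4 over PHLDA1 held 0.529 and 0.234 CPM in vehicle tumors, against 281 CPM for PHLDA1.

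Markers of the tumor epithelium (EPCAM, KRT7, KRT8, KRT18, KRT19, MUC1, CDH1, CLDN4 and CEACAM6) were present in every group, with a summed level of 6509.7 to 16644 CPM per tumor and 0 of 9 at 0. Their sum was lowest at 8 h, at 6509.7 to 10437 CPM, and at 48 h every tumor (13359 to 16644 CPM) was above every vehicle tumor (9288 to 12636 CPM). At 48 h 5 of the 9 rose (median 0.80), where 5.52% of all genes rose. The part of these markers in the 48 h levels of the 4 genes was not tested. Fibroblast and pericyte markers summed to 28469 CPM in 4 h tumor 2, also the shallowest library, and to 754 to 4947 CPM in the other 23 tumors. Without that tumor the 4 h levels were 2.59% of vehicle for KIAA0040, 34.4% for INPP1, 9.19% for PHLDA1 and 12.2% for TNS4. Muscle, adipocyte and red cell markers summed to 4503 CPM in 2 h tumor 1, 2446 CPM in 4 h tumor 4, 2889 CPM in 8 h tumor 2 and 2937 CPM in 24 h tumor 4. Mitochondrial transcripts held 9.70% of counts in vehicle tumors and 16.0%, 11.2%, 20.6%, 17.8% and 12.1% from 2 to 48 h after IK-595, with 31.4% in 24 h tumor 1, the tumor with the highest TNS4 at that time. The part of this share in the values of the 4 genes was not tested.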

How the data were processed

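RNA was measured in 24 tumors, which were grouped by their titles. Per the submitters' processing notes, the authors used bcl2fastq 2.17, FastQC 0.12.1 and Salmon 0.14.1 with GRCh38.p13. The authors deposited estimated counts per gene, of which 59.63% of values above 0 were whole to within 0.0015, and TPM values. For annotation release, strand setting and handling of host sequence the entry is "not given in the sources used here", so mouse RNA could add to counts of similar human genes. Gene IDs were matched without version to GENCODE 29 (57972 of 60230), 2247 more to a table of names, and 11 had no symbol.

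The estimated counts were rounded, and filterByExpr kept 18242 genes with 99.9% of counts. A robust quasi-likelihood fit with TMM scaling (edgeR 4.0.16, R 4.3.3) was made over all 24 tumors, with Benjamini-Hochberg adjustment over all genes of a comparison and a threshold of 0.05. Each tumor is a separate animal, and p-values measure the spread between animals. Log2 CPM used a prior count of 2. On simulated data for 24 h against 2 h (17919 genes) planted changes were recovered at 5.97% (1.5-fold), 47.8% (2-fold) and 80.3% (4-fold), and 2.2% of calls were false. No pair of tumors had identical values.

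The 4 genes and the 8 lists and 5 marker lists were chosen with earlier results of these data known. Genes were named by a rule: the 4 genes, the 5 of most similar time course to each, their family members, the 2 nearest tested genes on each side, and from each list the gene of smallest adjusted p at 2 h, at 24 h and between 24 and 2 h, with EGFR, MET, ITGB1, IMPA1 and IMPA2. Fewer values are printed than the rule allows, 1 gene near PHLDA1 in time course is not reported here, and AC011611.4 and HIBCH are named since they overlap a gene of the 4. Alternatives were DESeq2 1.42.0, limma 3.58.1 (voom, and log2 TPM with a pseudocount of 1 or 0.1), other scalings and filters, fits of only the groups compared, a replicate block and leaving out each tumor.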

Additional observations from a re-analysis of the deposited data

Results flagged for a closer look

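INPP1 and PHLDA1 had different changes from vehicle at 2 h and at 24 h by a test of the difference itself, which is the edgeR contrast of the 24 h with the 2 h tumors. The change at 24 h was higher by 0.55 ± 0.10 log2 units for INPP1 (adjusted p = 0.00324, higher in 4 of 4 tumors) and by 1.18 ± 0.22 for PHLDA1 (adjusted p = 0.00422, higher in 4 of 4 tumors). For KIAA0040 and TNS4 the same difference missed the threshold (adjusted p = 0.603 and 0.889).

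In 3 of 24 sets of 4 tumors the highest CPM lay apart from the others. Its gap to the next tumor was 0.831 of the set's range for TNS4 in vehicle tumor 4, 0.863 for TNS4 in 24 h tumor 1 and 0.833 for KIAA0040 in 24 h tumor 3, each above Dixon's 95% critical value. Chance alone gives such a gap in about 1 in 20 groups, and on log2 CPM 0 of the 24 sets passed.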

How the results depend on the processing

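The direction of the tested changes of single genes held under all alternatives, except for TNS4 at 24 h against 2 h, which was 0.23 and became -0.18 without 24 h tumor 1 (-0.18 to 0.39 on leaving out each tumor). Among the 12 differences between genes, 2 that had missed the threshold changed sign. INPP1 minus TNS4 at 2 h (0.21) was -0.14 without vehicle tumor 4 (-0.14 to 0.40 on leaving out each tumor). KIAA0040 minus TNS4 from 2 to 24 h was -0.01 with log2(TPM + 1) and -0.03 without 24 h tumor 3 (-0.03 to 0.60 on leaving out each tumor). TNS4 at 2 h lost its call with upper quartile scaling (-1.01, adjusted p = 0.0569), with no filter (-1.18), with log2(TPM + 0.1) (-1.11) and with only the groups compared (-1.09), and ranged from -1.28 to -0.62 on leaving out each tumor. INPP1 at 24 h against 2 h lost its call with only the groups compared (0.55, adjusted p = 0.104). INPP1 at 24 h against vehicle passed with DESeq2 (-0.25, adjusted p = 0.0242) and ranged from -0.30 to -0.17 on leaving out each tumor, and TNS4 from -1.28 to -0.39. With log2(TPM + 1) the values were -4.50 for KIAA0040 and -1.42 for INPP1 at 4 h, and -1.50 for INPP1 and -1.91 for TNS4 at 8 h. With log2(TPM + 0.1) they were -1.44 for INPP1 at 4 h, and -1.53 for INPP1 and -3.70 for PHLDA1 at 8 h. Upper quartile scaling gave -1.10 for INPP1 at 8 h, and leaving out each tumor gave INPP1 -1.54 to -1.46 at 4 h. In TPM the level of INPP1 was 48.9% of vehicle at 2 h, 36.9% at 4 h and 34.9% at 8 h, and that of PHLDA1 7.74% at 8 h. The causes were not tested.

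Counts of genes over the whole table depended on the setting. From 2 to 24 h 176 genes rose and 198 fell. DESeq2 gave 353 and 454, log2(TPM + 1) 107 and 58, log2(TPM + 0.1) 78 and 41, and only the groups compared 61 and 41, while with no filter 89 fell. Leaving out each tumor gave 77 to 341 that rose and 70 to 242 that fell. With no filter, log2(TPM + 1) and log2(TPM + 0.1) in that order, the count that rose at 2 h went from 2438 to 1382, 1176 and 1217, at 4 h from 1230 to 805, 752 and 783, and at 24 h from 2493 to 1657, 1398 and 1398. With log2(TPM + 1) and log2(TPM + 0.1), the count that rose at 8 h went from 3755 to 1980 and 1975, at 48 h from 1007 to 494 and 533, and the count that fell at 4 h from 1531 to 907 and 882. At 48 h 814 fell, and 493 with log2(TPM + 0.1). Leaving out each tumor gave 1575 to 2581 that rose at 2 h, and 581 to 1049 that rose and 382 to 870 that fell at 48 h.

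Replicate numbers were not shown to pair the tumors: among 60 same-numbered pairs from different groups, 20 had a correlation above 0.1, with a mean r of -0.013. Pairs of different number were not compared. With the replicate block the calls of the 4 genes were the same in each test, with INPP1 at 0.54 and PHLDA1 at 1.16 from 2 to 24 h (adjusted p = 0.00808 and 0.0130), and 142 genes rose and 149 fell there over the whole table. At this depth and 4 tumors a group, a 1.5-fold change is mostly missed from 2 to 24 h.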
